A study of Mus musculus with 4 samples.

Results

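The Rosa26 transcript, annotated as Gt(ROSA)26Sor, and the 2 genes that flank it, Thumpd3 and Setd5, were followed through single bone marrow cells of mice that carried a tdTomato lineage reporter. These 3 genes were taken by name from the 32285 genes counted. Gt(ROSA)26Sor was selected on its measured counts, which were lower in the tdTomato-positive cells of these libraries, and the flanking genes were chosen by their position beside it. For this reason the differences of the 3 genes between the tdTomato gates are given as a description of their size, without a test. Levels by cell class and by chemistry did not enter that choice and were tested, as was whether the gate difference varied between chemistries or classes.

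The cells came from 2 male mice with a tamoxifen-inducible Cre driven by Tppp3 and a Cre-dependent tdTomato cassette (Tppp3CreER LSLTdTomato). Tamoxifen was given on postnatal days 0 and 3 and marrow was taken at 3 months. Kit-enriched cells were sorted as lineage-negative, Sca-1-positive and Kit-positive, the compartment of haematopoietic stem cells (HSCs) and multipotent progenitors. Each mouse gave a tdTomato-positive tube and a tdTomato-negative tube, 4 tubes in all, each marked with its own hashtag antibody and loaded in part on GEM-X and in part on v3.1, a newer and an older 10x Genomics droplet chemistry. The tdTomato-positive cells are those in which the Cre acted in the newborn, and their progeny. The tdTomato-negative cells carried the same alleles and received the same tamoxifen. A cell in which the Cre failed to act is also negative.

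Rosa26 is a gene-trap locus whose non-coding RNA is transcribed in nearly every mouse cell type. It is a common site for placing transgenes, and such cassettes are usually put in the intron behind the first exon, where some, but not all, use the same start of transcription. The labels of this study do not say where its reporter was placed. Thumpd3 encodes a tRNA guanosine methyltransferase that works with TRMT112. Setd5 encodes a SET-domain protein that associates with the NCoR-HDAC3 corepressor and the PAF1 transcription elongation complex.

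In the GENCODE M21 annotation of the GRCm38 (mm10) genome, the 3 genes lie next to each other on chromosome 6. Thumpd3 (ENSMUSG00000030264) spans 113046225 to 113068273 on the plus strand. Gt(ROSA)26Sor (ENSMUSG00000086429, an antisense non-coding gene) spans 113067428 to 113077333 on the minus strand. Setd5 (ENSMUSG00000034269) spans 113077365 to 113153435 on the plus strand. The start of Setd5 is separated from the start of the Rosa26 gene by 31 bases, and these genes run away from each other. At the other end, the last 846 bases of the Rosa26 gene overlap the end of Thumpd3, which is read from the other strand. Of the 4 annotated Rosa26 transcripts, 2 have their last exon within the span of Thumpd3 and 2 end 2124 bases or more before it. The sources used here do not say how the counting treated strand and introns, and reads from that shared stretch cannot be assigned to Rosa26 or Thumpd3 with certainty.

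**Figure D1:**
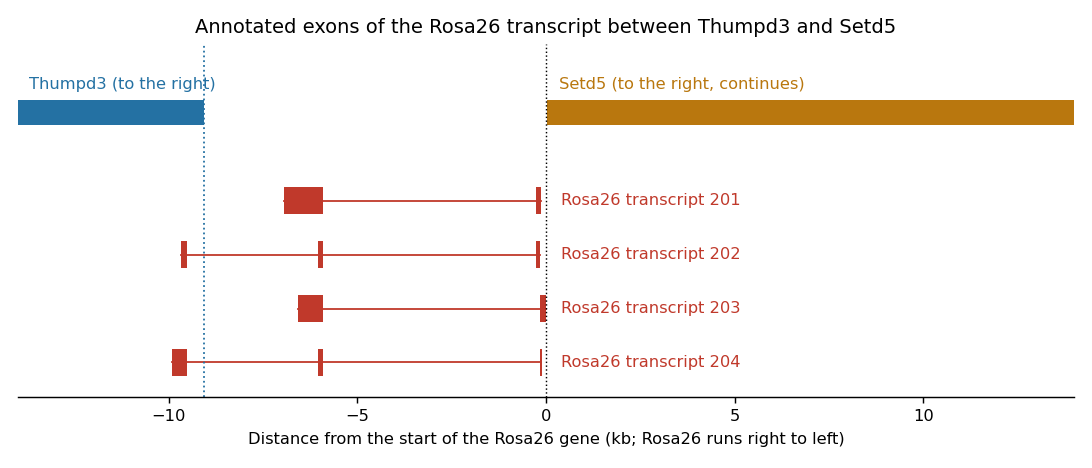
Annotated exons (boxes) of the 4 Rosa26 transcripts, with the spans of Thumpd3 and Setd5 above them, by distance in kb from the start of the Rosa26 gene. Transcripts 202 and 204 reach under Thumpd3, whose end is the left dotted line, and Setd5 starts just to the right of the Rosa26 start.

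The labels name a 3′ kit for the older chemistry, which reads a transcript near its 3′ end, so the stretches below show where the Rosa26 gene begins, which exon its transcripts share, and how the transcript that ends before Thumpd3 finishes. All are on the minus strand, written 5′ to 3′ in the direction of Rosa26, from the GENCODE M21 transcripts. The first exon of transcript 201 lies at chr6:113077068-113077210, and capitals mark the 37 bases that also lie in the first exon of transcript 203. The shared exon at chr6:113071294-113071435 lies in all 4 transcripts. The last 30 bases of transcript 201 lie at chr6:113070398-113070427, and capitals mark AATAAA, the common polyadenylation signal.
Rosa26 exon 1: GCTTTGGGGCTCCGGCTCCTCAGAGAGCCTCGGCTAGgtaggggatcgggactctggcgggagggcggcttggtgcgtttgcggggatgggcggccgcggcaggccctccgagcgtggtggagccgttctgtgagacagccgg
Rosa26 shared exon: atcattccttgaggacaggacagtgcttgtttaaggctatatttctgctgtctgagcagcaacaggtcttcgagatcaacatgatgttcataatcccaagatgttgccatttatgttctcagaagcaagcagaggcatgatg
Rosa26 3′ end: ggcAATAAAcctatgtcctaaatagtcaaa
AATAAA, searched on the transcript strand, is found in the last 30 bases of 23.3% of all 141722 GENCODE transcripts and of 20.8% of the 30239 non-coding ones. Which of the 4 transcripts the counted molecules came from cannot be read from the deposited matrices.

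After filtering, 32330 cells carried exactly 1 hashtag. The tdTomato-positive tubes held 3867 cells (mouse 1) and 3933 cells (mouse 2), and the tdTomato-negative tubes held 12144 and 12386 cells. Summed depth was 41632138 and 34833395 UMIs in the positive tubes and 131548131 and 114970826 UMIs in the negative tubes. No cell barcode occurred in both chemistries. Levels are given in CPM, UMIs of the gene per 1000000 UMIs of all genes summed over the cells of a tube. All 14 HSC marker genes were detected over the 4 tubes together, with a summed level of 2679 and 3006 CPM in the positive tubes and 2826 and 3028 CPM in the negative tubes. The 14 granulocyte-monocyte markers summed to 2759 and 1068 CPM in the positive tubes against 1499.9 and 1061 CPM in the negative tubes, so the positive tube of mouse 1 stood apart in them. The labels describe the sort in 2 ways, and each hashtag was read as 1 mouse and 1 gate. With 2 mice, standard errors (SE) and p-values rest on a spread pooled over genes, and depth intervals cover counting error only.

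The Rosa26 transcript was lower in tdTomato-positive than in tdTomato-negative cells of both mice. Over both chemistries it stood at 18.4 CPM (765 UMIs, exact Poisson 95% interval 17.1 to 19.7) and 16.8 CPM (585 UMIs, 15.5 to 18.2) in the positive tubes of mouse 1 and mouse 2. In the negative tubes it stood at 25.6 CPM (3366 UMIs, 24.7 to 26.5) and 24.6 CPM (2824 UMIs, 23.7 to 25.5). The gates did not overlap, and the counting intervals of the positive tubes ended below those of the negative tubes. Of all genes tested, 9.8% had both positive tubes below both negative tubes and 7.63% had both above, so a gene without overlap between the gates was common. The means were 17.6 ± 1.12 CPM in the positive gate and 25.1 ± 0.725 CPM in the negative gate (SD, n = 2 tubes each), which is 29.9% lower in the positive gate. The fitted log2 fold change, positive over negative with the mouse as a block, was -0.50 ± 0.05 (SE). Across all genes this contrast called 132 of 16586 genes tested, 0.796%, at an adjusted p under 0.05 by edgeR's quasi-likelihood test, 92 higher (0.555%) and 40 lower (0.241%). Among the 1949 genes of at least 10 CPM that were lower in the positive gate in both mice and both chemistries, Gt(ROSA)26Sor had the lowest log2 fold change. Since the gene was chosen for this contrast, that rank describes it and supports nothing further.

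Both chemistries gave this difference separately. With GEM-X, Rosa26 had 15.7 and 16.2 CPM in the positive tubes against 23.6 and 22.5 CPM in the negative tubes. With v3.1 it had 22.3 and 17.7 CPM in the positive tubes against 28.6 and 27.6 CPM in the negative tubes. The positive tube was thus the lower one in 4 of 4 pairs of mouse and chemistry, by log2 ratios of -0.58 and -0.47 (GEM-X) and -0.36 and -0.64 (v3.1). These pairs share the same mice and are parts of the counts on which the gene was chosen. They are a description only, and the share over all genes is not given for them. The mean was 30.7% lower with GEM-X and 28.9% lower with v3.1. The difference of these gate effects, GEM-X minus v3.1, was -0.05 ± 0.10 (SE, log2; edgeR adjusted p = 0.99997). That test of the difference called 0.0441% of genes.

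Setd5, which starts next to Rosa26 and runs the other way, was lower in the positive gate by a smaller amount. It stood at 195 and 204 CPM in the positive tubes against 214 and 219 CPM in the negative tubes. The gates did not overlap, which in this direction held for 9.8% of all genes tested. The means were 199 ± 6.64 CPM in the positive gate and 216 ± 3.52 CPM in the negative gate (SD, n = 2 tubes each), 7.89% lower, and the fitted log2 fold change was -0.11 ± 0.03 (SE). With GEM-X it had 224 and 229 CPM in the positive tubes against 243 and 248 CPM in the negative tubes. With v3.1 it had 152 and 166 CPM in the positive tubes against 170 and 176 CPM in the negative tubes. It was lower in the positive tube in 4 of 4 pairs of mouse and chemistry. The share over all genes is not given for this count, and the pairs share the same mice. Among the same 1949 genes Setd5 ranked 123 from the lowest log2 fold change.

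Thumpd3, at the other end of Rosa26, had overlapping gates. It stood at 48.7 and 51.2 CPM in the positive tubes against 49.7 and 52.1 CPM in the negative tubes. The means were 49.96 ± 1.73 CPM in the positive gate and 50.9 ± 1.71 CPM in the negative gate (SD, n = 2 tubes each), with a log2 fold change of -0.02 ± 0.04 (SE). By chemistry its log2 ratios were -0.07 and 0.01 with GEM-X and 0.05 and -0.11 with v3.1, without a common direction.

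**Figure D2:**
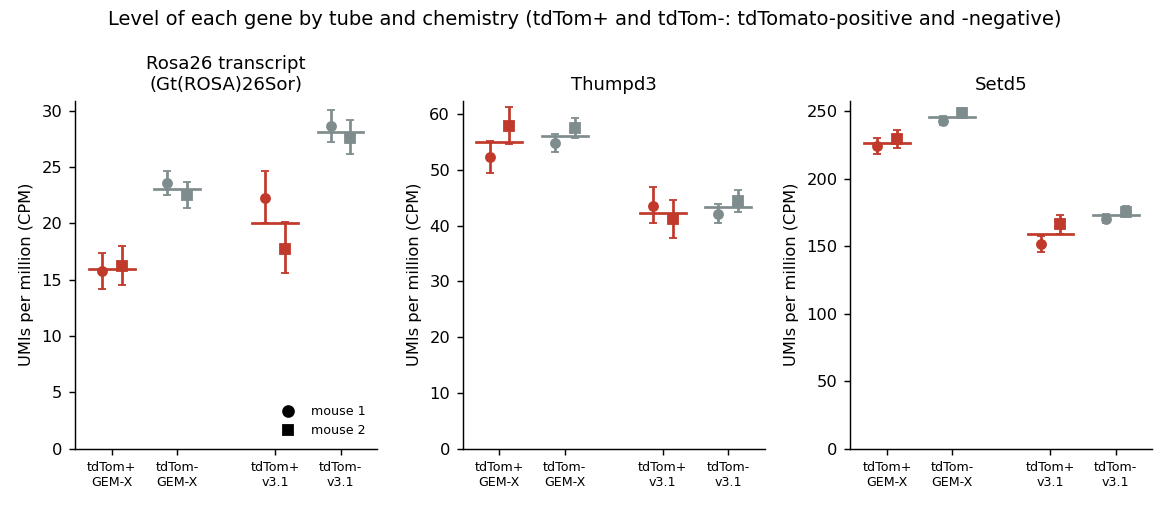
Level of each gene in CPM by tdTomato gate and chemistry. Points are tubes (circle mouse 1, square mouse 2) with exact Poisson 95% intervals, and bars are means of 2 tubes. Rosa26 is lower in the positive gate with both chemistries, Setd5 slightly so, and Thumpd3 overlaps. Rosa26 is lower with GEM-X than with v3.1 in each tube, while both flanking genes are higher.

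Set against either neighbour in the same tubes, Rosa26 was again lower in the positive gate. For every 100 UMIs of Thumpd3 there were 37.7 and 32.8 UMIs of Rosa26 in the positive tubes against 51.5 and 47.1 in the negative tubes. For every 100 UMIs of Setd5 there were 9.44 and 8.23 UMIs of Rosa26 in the positive tubes against 11.97 and 11.2 in the negative tubes. Both ratios need no scaling to the total UMIs of a tube. Neither is a ratio of molecules per cell, since genes differ in how well they are captured.

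The share of cells with a Rosa26 UMI followed the same order. Unthinned, it was 17.2% and 13.3% in the positive tubes against 22.9% and 18.7% in the negative tubes, at median depths of 9095 and 7731 UMIs per cell in the positive tubes and 9315 and 7855 UMIs in the negative tubes. With each cell thinned to 4000 UMIs, 6.73% and 6.67% of positive cells held a Rosa26 UMI against 9.64% and 9.25% of negative cells. Thinning left out 196 and 292 shallower positive cells and 528 and 768 shallower negative cells. At that depth Setd5 was found in 51.7% and 51.9% of positive cells against 55.9% and 56.6% of negative cells. Thumpd3 was found in 16.8% and 17.5% of positive cells against 17.7% and 18.1% of negative cells. No class in these data is known to lack any of the 3 genes, so the share that free RNA gives was not measured.

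A list of 30 neighbouring genes was drawn up, of which all 30 were measured and 25 tested between the gates, with starts between -803.6 and 663.4 kb of the Rosa26 start (negative on the side of Thumpd3). None of the 25 was called by edgeR's quasi-likelihood test, none had an unadjusted p under 0.05, and DESeq2 called 0. With 0.796% of all genes called, a count of 0 in a list of this size is near the background. Of all 16586 genes tested, 1082 had an unadjusted p under 0.05 by edgeR. The median log2 fold change of the 25 tested neighbours was -0.01, against 0.00 for all genes tested, with 14 neighbours below 0 and 11 above. The 17 with at least 10 CPM lay between -0.08 and 0.05. On the side of Thumpd3, the nearest with that level were Srgap3 at -0.01 ± 0.04 and Rad18, a ubiquitin ligase of DNA damage tolerance, at 0.04 ± 0.03 (log2 ± SE). On the side of Setd5 they were Mtmr14, a phosphoinositide phosphatase, at 0.03 ± 0.05 and Brpf1, a subunit of histone acetyltransferase complexes, at -0.01 ± 0.04. Counted in the same way, their starts lie at -130.1 kb (Srgap3), -380.6 kb (Rad18), 160.5 kb (Mtmr14) and 229.8 kb (Brpf1).

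**Figure D3:**
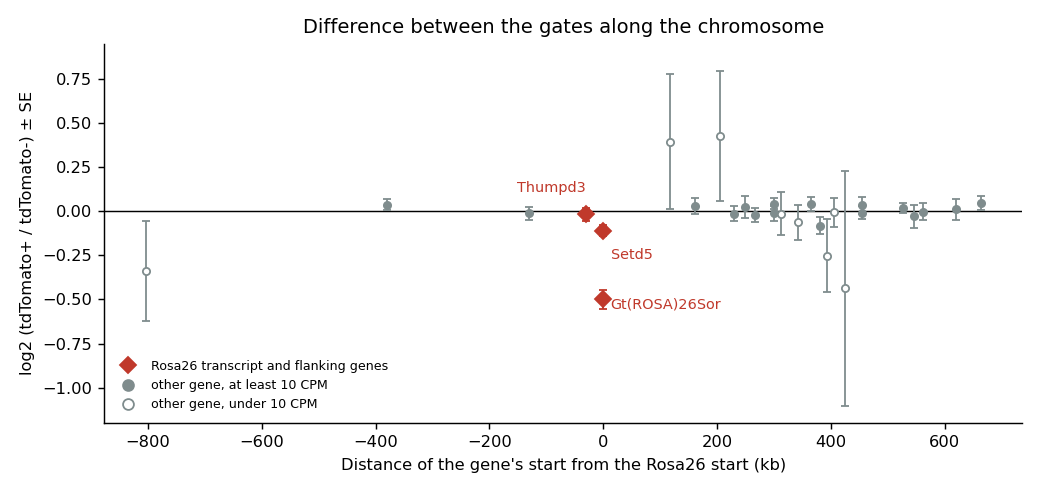
Fitted log2 fold change between the gates, positive over negative, with its SE, for Rosa26, Thumpd3, Setd5 and the 25 tested neighbours, by distance in kb of each gene's start from the Rosa26 start. Gt(ROSA)26Sor lies at -0.50 and Setd5 at -0.11, while neighbours of at least 10 CPM (filled) lie between -0.08 and 0.05. Genes under 10 CPM (open) have wide errors.

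Partners of the flanking genes were listed as well. Of 8 listed partners of Thumpd3, TRMT112 and the methyltransferases it activates, 0 were called by edgeR's quasi-likelihood test and 0 had an unadjusted p under 0.05. Of 12 listed partners of Setd5, subunits of the NCoR-HDAC3 and PAF1 complexes, 0 were called and 1 had an unadjusted p under 0.05. It was Hdac3, the histone deacetylase of the NCoR complex, at 0.09 ± 0.04 (log2 ± SE), which by edgeR had an adjusted p of 0.614. The counts called too are near the background of 0.796%. At an unadjusted p under 0.05 by edgeR the background was 1082 of 16586 genes tested. The median log2 fold change was 0.03 for the Thumpd3 partners and 0.01 for the Setd5 partners, against 0.00 for all genes tested.

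The cells fell into 19 clusters, made without the values of the 3 genes, which were not among the 2000 variable genes used. Named from marker genes, 2 of them were HSC-like (5506 cells, 1 of the 2 led by interferon-induced genes), and 1 each was megakaryocyte-platelet-like (2463 cells), neutrophil-like (442 cells, led by early granule genes such as Elane too), B cell-like (194 cells), erythroid-like (169 cells) and T and NK cell-like (78 cells). The other 12 clusters had no name. Rosa26 was lower in the positive tube of both mice in 15 of 19 clusters and higher in both in 1. That 1 was the T and NK cell-like cluster, where 19 Rosa26 UMIs were counted in all 4 tubes together. Setd5 was lower in both mice in 9 clusters and higher in both in 1, and Thumpd3 was lower in both in 7 and higher in both in 6. The clusters share the same mice and are not replicates, and the share over all genes is not given for these counts.

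Counting error was smaller in the 11 clusters with at least 100 cells in every tube. There Rosa26 was lower in the positive tube of both mice in 11 of 11. The mean log2 ratio per cluster ran from -0.78 to -0.12, with a median of -0.53. The smallest of these differences was in the interferon-led HSC-like cluster, number 5. That name gives its leading genes only. In a finer clustering (Leiden resolution 2) Cxcl10, Ifit1 and Ifit3 led an unnamed cluster of 695 cells. Pbld1 and Kcnd3, also leading genes of cluster 5, there led an HSC-like cluster of 2159 cells. Of 9368 genes of at least 10 CPM, 1 gene (0.0107%), Gt(ROSA)26Sor itself, was lower in both mice in all 11 clusters, and the median gene was so in 3. Since the gene was chosen for this contrast, that count describes it and supports nothing further. Setd5 was lower in both mice in 7 of the 11 clusters, a count that 120 genes (1.28%) reached or passed. Thumpd3 was lower in 5 and higher in 3. With the chemistries taken apart, Rosa26 was lower in the positive tube in 42 of 44 pairs of cluster, mouse and chemistry (95.5%), Setd5 in 32 and Thumpd3 in 25. These pairs share the same mice and are not replicates. The share over all genes is not given for them, so these counts too are a description only.

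**Figure D4:**
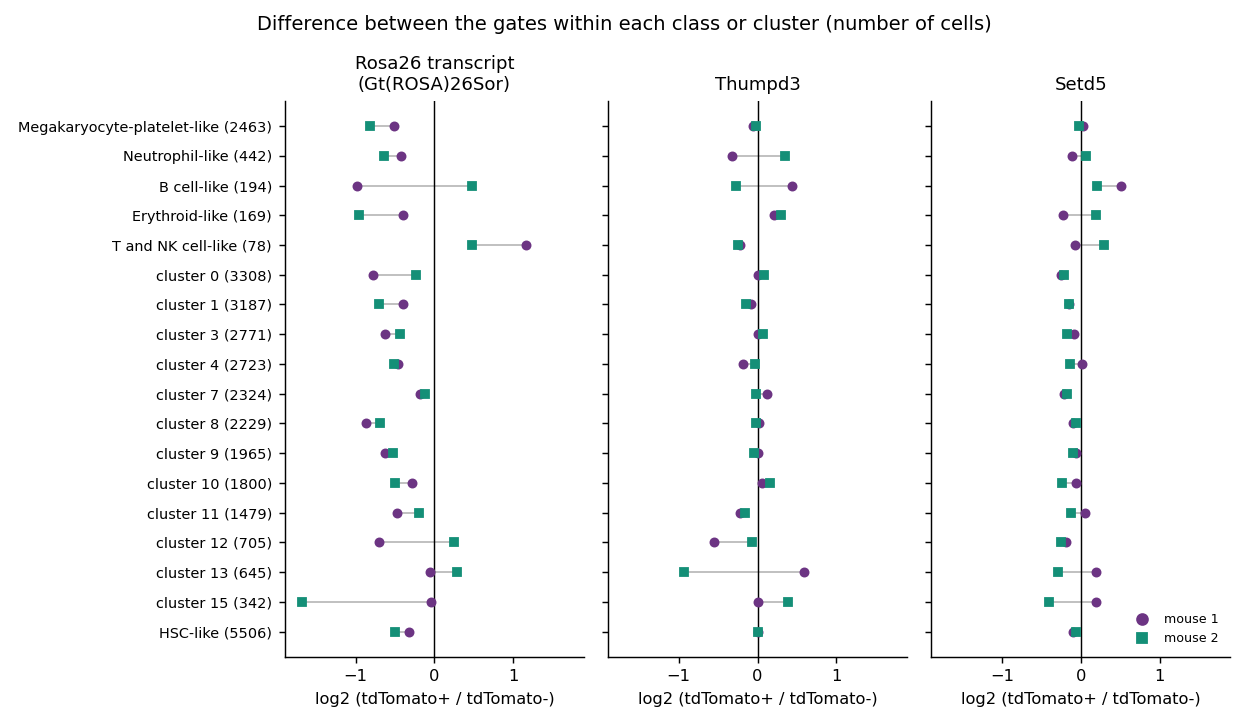
Log2 ratio of CPM, tdTomato-positive over tdTomato-negative, within each named class or unnamed cluster, for mouse 1 (circle) and mouse 2 (square), with the number of cells in brackets. Most Rosa26 points lie left of 0, while Thumpd3 points fall on both sides. Classes with few cells scatter widely.

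The mix of clusters differed between tubes, the granulocyte-monocyte markers above among them. With the clusters of each mouse weighted alike in both gates, Rosa26 had 18.5 CPM in positive and 25.5 CPM in negative cells of mouse 1, and 17.0 CPM in positive and 24.4 CPM in negative cells of mouse 2. The log2 ratios were -0.46 and -0.53, against -0.48 and -0.55 as the cells fell. Setd5 had ratios of -0.11 and -0.11 with equal weights. This weighting holds alike the clusters but not the cells within a cluster, and a cause of the Rosa26 difference was not tested.

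In HSC-like cells alone, Rosa26 had 17.3 and 14.2 CPM in the positive tubes against 21.6 and 20.1 CPM in the negative tubes. The log2 fold change was -0.40 ± 0.13 (SE), with 3 of 13454 genes (0.0223%) called in this contrast by edgeR's quasi-likelihood test. Setd5 was at -0.08 ± 0.04 and Thumpd3 at 0.01 ± 0.08. The gate effect in HSC-like cells minus that in all other cells was 0.11 ± 0.14 for Rosa26, 0.04 ± 0.07 for Setd5 and 0.03 ± 0.10 for Thumpd3 (log2 ± SE; edgeR adjusted p = 1 for each; 0% of 15262 genes called, with 353 at an unadjusted p under 0.05). Between the 2 HSC-like clusters the value for Rosa26 was -0.11 ± 0.19 in the interferon-led one and -0.69 ± 0.19 in the other. That difference, 0.58 ± 0.27, missed the threshold over all genes (edgeR adjusted p = 0.977, unadjusted p = 0.0364), where 0% of 12635 genes were called and 599 had an unadjusted p under 0.05, and it was looked at after the data had been seen.

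By cell class, the Rosa26 transcript was highest in erythroid-like cells. It had 38.2 and 31.4 CPM in the positive tubes against 50.2 and 60.9 CPM in the negative tubes, from 312 UMIs and as few as 15 cells in a tube. Each tube was 2.20 to 3.03 times its own HSC-like level. In a comparison added after the data had been seen, the log2 fold change of erythroid-like over HSC-like cells, with the tube as a block, was 1.76 ± 0.13 (SE; edgeR adjusted p = 1.47e-14), in a contrast that called 79.7% of genes tested. Thumpd3 was highest in the same cells, with 106 and 103 CPM in the positive tubes against 92.1 and 84.0 CPM in the negative tubes, and its log2 fold change over HSC-like cells was 1.25 ± 0.09 (edgeR adjusted p = 2.73e-14). Setd5 was at its lowest there, with 117 and 135 CPM in the positive tubes against 137 and 118 CPM in the negative tubes (log2 fold change -0.59 ± 0.08, edgeR adjusted p = 1.4e-07). All 4 tubes shared each of these directions. Scaled by total UMIs alone, the values were 1.40, 0.90 and -0.94, and the median of all genes moved to -0.59, against -0.22 with TMM scaling.

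Megakaryocyte-platelet-like cells also held more Rosa26 than HSC-like cells. They had 22.0 and 18.5 CPM in the positive tubes against 31.4 and 32.5 CPM in the negative tubes, each 1.27 to 1.62 times the HSC-like level of its tube. The log2 fold change was 0.66 ± 0.09 (SE; edgeR adjusted p = 1.28e-06), in a contrast that called 67.1% of genes, 33.4% higher and 33.7% lower. Thumpd3 rose less, at a log2 value of 0.24 ± 0.07 with an edgeR adjusted p of 0.00395, to 50.6 and 54.6 CPM in the positive and 52.9 and 55.2 CPM in the negative tubes, against 47.4 and 49.9 CPM in the positive and 47.3 and 49.7 CPM in the negative tubes of HSC-like cells. It no longer passed when scaled by total UMIs alone (0.14, edgeR adjusted p = 0.0802), a scaling that moved the median of all genes to -0.12, against -0.02. Setd5 did not pass (0.02 ± 0.05, edgeR adjusted p = 0.965), and its sign turned with the scaling. The gate difference stood within this class as well, where the Rosa26 log2 ratios were -0.52 (mouse 1) and -0.81 (mouse 2).

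In neutrophil-like cells Setd5 fell to 118 and 152 CPM in the positive tubes and 127 and 146 CPM in the negative tubes, against 229 and 233 CPM and 246 and 244 CPM in HSC-like cells of the same tubes. Each tube was at 0.512 to 0.653 times its HSC-like level, and the log2 fold change was -0.46 ± 0.06 (SE; edgeR adjusted p = 3.68e-07), or -0.85 with total UMIs alone. That contrast called 79.3% of genes, 37.9% higher and 41.4% lower. For Rosa26 and Thumpd3 the direction in neutrophil-like cells depended on the scaling. Rosa26 had 16.1 and 10.97 CPM in the positive and 21.6 and 17.0 CPM in the negative tubes, at or below the HSC-like level in 4 of 4 tubes, yet its TMM-scaled log2 fold change was 0.31 ± 0.13 (edgeR adjusted p = 0.0307) and its value by total UMIs alone was -0.10 (adjusted p = 0.516). Its TMM-scaled call was also lost without the negative tube of mouse 1 (0.20, edgeR adjusted p = 0.327) and without the positive tube of mouse 1 (0.27, adjusted p = 0.102), with RLE factors (0.27, adjusted p = 0.0510) and with classes of at least 10 cells per tube (0.25, adjusted p = 0.0966). Thumpd3 was at 0.28 ± 0.08 by TMM (edgeR adjusted p = 0.00508) and -0.11 by total UMIs (adjusted p = 0.218), and its call was lost without the negative tube of mouse 1 (0.22, adjusted p = 0.091). The median of all genes in this contrast was -0.08 by TMM and -0.47 by total UMIs.

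B cell-like cells were compared after the data had been seen, since 1 tube held 19 of them. Only Thumpd3 passed there, at a log2 fold change over HSC-like cells of 0.41 ± 0.15 (SE; edgeR adjusted p = 0.0183, 56.4% of genes called), and it missed the threshold by total UMIs (0.25, adjusted p = 0.16) and without the negative tube of mouse 2 (0.30, adjusted p = 0.258). Rosa26 (0.39 ± 0.25, edgeR adjusted p = 0.176) and Setd5 (0.13 ± 0.09, adjusted p = 0.23) did not pass. The T and NK cell-like class had too few cells for a comparison.

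Among unnamed clusters, compared by number in the same added way, Rosa26 rose over HSC-like cells most in cluster 1, led by genes of DNA replication such as Ccne2, Tk1 and Clspn (0.60 ± 0.07, edgeR adjusted p = 6.15e-12), and in cluster 9, led by Mcpt8, Irf8 and Ctsg (0.60 ± 0.08, adjusted p = 2.43e-10). It also rose in clusters 4 (0.38), 10 (0.32; edgeR adjusted p = 0.00109) and 0 (0.32; adjusted p = 0.000452), with 19.9 and 17.7 CPM in the positive and 24.3 and 25.1 CPM in the negative tubes of cluster 10. In plain CPM it lay above HSC-like cells in 3 of 4 tubes of cluster 0. In clusters 1, 4, 9 and 10 it did so in 4 of 4. Rosa26 had mean log2 CPM ratios to HSC-like cells of 0.49 (cluster 1), 0.38 (cluster 9), 0.28 (cluster 4), 0.25 (cluster 10) and 0.24 (cluster 0). In cluster 7, led by mitotic genes such as Aspm and Cenpf, it did not pass with TMM scaling (-0.13 ± 0.08, edgeR adjusted p = 0.143) and passed as lower by total UMIs alone (-0.26, adjusted p = 0.00235). It fell in cluster 13 (-1.04 ± 0.27, edgeR adjusted p = 0.000694), where cells had a median of 2515 UMIs and 21 Rosa26 UMIs were counted in all. These contrasts called 76.8% of genes tested in cluster 1, 77.6% in cluster 9, 56.8% in clusters 4 and 0, 67.7% in cluster 10, 72.5% in cluster 7 and 53.9% in cluster 13.

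The order of mean levels over 4 tubes was as follows, counting the 2 HSC-like clusters as 1 class. For Rosa26 it ran from 45.2 ± 13.1 CPM in erythroid-like cells over T and NK cell-like cells, 26.1 ± 6.92 CPM in megakaryocyte-platelet-like cells, clusters 1 and 9, B cell-like cells, clusters 4, 0, 10, 11 and 15, 18.3 ± 3.24 CPM in HSC-like cells, clusters 3, 8 and 12, and 16.4 ± 4.35 CPM in neutrophil-like cells to cluster 7 and 11.5 ± 1.58 CPM in cluster 13 (SD, n = 4 tubes). For Thumpd3 it ran from 96.3 ± 10.2 CPM in erythroid-like cells over B cell-like and T and NK cell-like cells, cluster 8 and megakaryocyte-platelet-like cells to 48.6 ± 1.41 CPM in HSC-like cells, and to 43.8 ± 9.40 CPM in cluster 15. For Setd5 it ran from 332 ± 67.5 CPM in cluster 13 over B cell-like cells, cluster 8, 238 ± 7.997 CPM in HSC-like cells, T and NK cell-like cells and 226 ± 2.48 CPM in megakaryocyte-platelet-like cells to 136 ± 16.1 CPM in neutrophil-like cells, cluster 15 and 127 ± 10.6 CPM in erythroid-like cells. Neighbours in these orders mostly did not differ beyond their spread. The 4 tubes of a pair of neighbours lay apart in 1 of 17 pairs for each gene, which was cluster 7 above cluster 13 for Rosa26, erythroid-like above B cell-like cells for Thumpd3, and cluster 9 above neutrophil-like cells for Setd5.

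**Figure D5:**
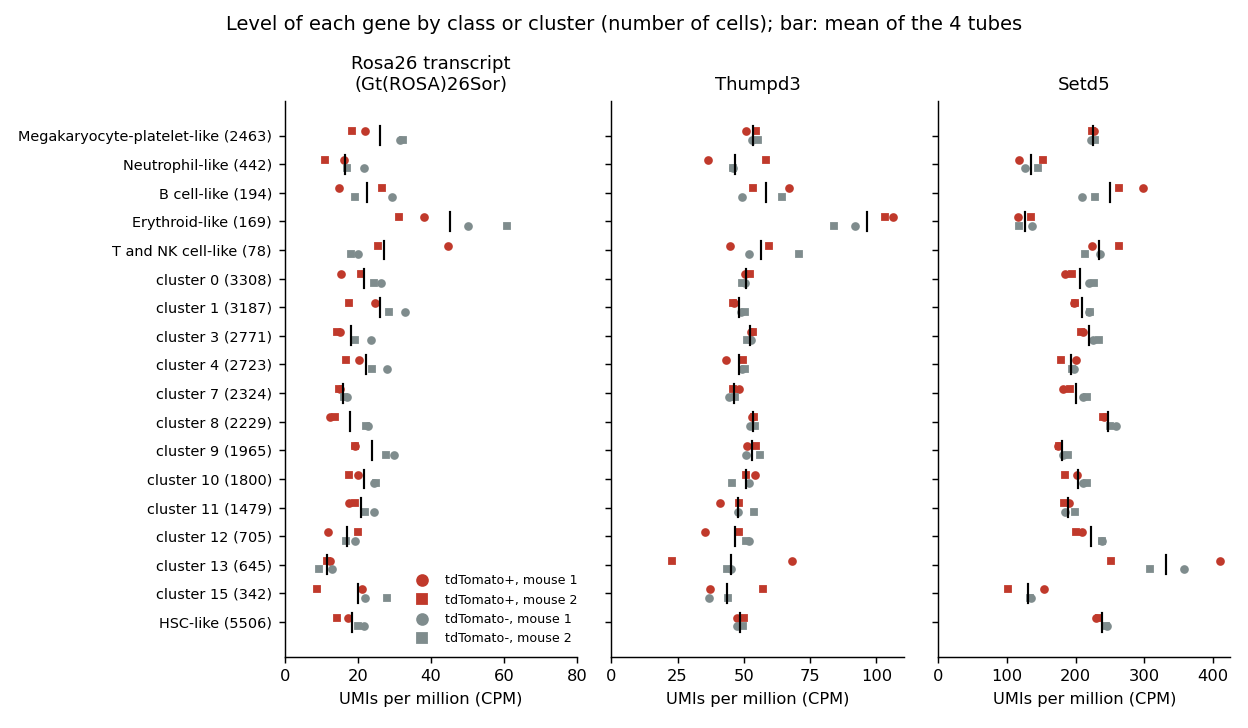
Level of each gene in CPM by class or cluster, with the number of cells in brackets. Points are tubes (red tdTomato-positive, grey tdTomato-negative, circle mouse 1, square mouse 2) and the bar is the mean of 4 tubes. Erythroid-like cells lie highest for Rosa26 and Thumpd3 and lowest for Setd5.

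Across the 19 clusters, Pearson's r of the log2 level (CPM + 1) was 0.758 between Rosa26 and Thumpd3, -0.568 between Rosa26 and Setd5 and -0.225 between Setd5 and Thumpd3. Without the erythroid-like cluster the values were 0.417, -0.344 and 0.386 over 18 clusters, so the first and the last rest largely on it. Cluster 13, with the highest mean Setd5, the lowest mean Rosa26 and a median of 2515 UMIs per cell, was never left out. The clusters share mice, libraries and depth differences, and these values are a description only. Of 7391 genes with at least 20 CPM on average, those most like Rosa26 by this measure included Nap1l4, a histone chaperone (r 0.918, and 0.913 without the erythroid-like cluster) and Nanp, a sialic acid synthesis phosphatase (0.899 and 0.818). Those most like Setd5 were Ptbp2, a splicing regulator (0.973 and 0.966), Vps54, a vesicle tethering subunit (0.973 and 0.967), and Dync2h1, a ciliary dynein heavy chain (0.965 and 0.954). Those most like Thumpd3 were Smap1 (0.893 and 0.642), the tRNA methyltransferase Alkbh8 (0.846 and 0.604), a listed TRMT112 partner, and the citrate synthase gene Cs (0.828 and 0.492).

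Between the chemistries the 3 genes moved in different directions. Rosa26 had 19.5 ± 4.11 CPM with GEM-X and 24.0 ± 5.05 CPM with v3.1 (SD, n = 4 tubes each) and was lower with GEM-X in 4 of 4 tubes. Its log2 fold change, GEM-X over v3.1 with the tube as a block, was -0.28 ± 0.05 (SE; edgeR adjusted p = 2.51e-05). Thumpd3 had 55.6 ± 2.60 CPM with GEM-X and 42.8 ± 1.44 CPM with v3.1, which differed by 0.40 ± 0.03 on the log2 scale (edgeR adjusted p = 2.5e-09). Setd5 had 236 ± 11.5 CPM with GEM-X and 166 ± 10.2 CPM with v3.1, which differed by 0.54 ± 0.02 (edgeR adjusted p = 3.75e-16). Both were higher with GEM-X in 4 of 4 tubes. The labels list 1 gene expression library per chemistry, so these p-values cover spread between tubes within the libraries, not between libraries. The contrast called 73.2% of 15862 genes, 37% higher and 36.2% lower with GEM-X, so a call in it was the rule among all genes. The same was seen in the lists, with 10 of 24 neighbourhood genes higher and 10 lower, 5 of 8 Thumpd3 partners higher and 1 lower, and 8 of 12 Setd5 partners higher and 4 lower.

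Without the tube as a block, the Rosa26 chemistry difference kept its size but not its call (-0.28, edgeR adjusted p = 0.192). The ratio of Rosa26 to Setd5 shows both contrasts side by side. For every 100 UMIs of Setd5 there were 7.03 and 7.06 UMIs of Rosa26 in the positive and 9.70 and 9.05 in the negative tubes with GEM-X, against 14.7 and 10.7 in the positive and 16.8 and 15.7 in the negative tubes with v3.1. The matrices of the chemistries were made from separate libraries and with different versions of Cell Ranger, so chemistry, library and software version cannot be told apart.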

How the data were processed

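The authors deposited unscaled UMI counts for each gene or hashtag in each barcode, written by Cell Ranger 8.0.1 for GEM-X and by version 7.1.0 for v3.1, per the file headers. The submitters' processing notes name Cell Ranger 7.0.0 and mm10. Which chemistry a matrix holds is not labelled and was inferred from matrix names and versions. A deposited text pairs hashtags with mice and gates.

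Barcodes needed 1000 genes or more and mitochondrial UMIs of 10% or less. This kept 20140 barcodes of GEM-X and 16721 of v3.1 and left out 371 and 1034, from 234563105 and 178214937 gene UMIs. Hashtags were called with a Gaussian mixture of 2 components (scikit-learn 1.9.0), where the upper one had a posterior above 0.5. Cells with exactly 1 hashtag were used (17986 and 14344), and cells with none (63 and 13) or several (2091 and 2364, taken as doublets) were left out. Scrublet (scanpy 1.11.5) called 0 cells by its automatic threshold, and a score of 0.2, set after the data were seen, marked 4.01% and 3.89% of cells for an alternative without them. Counts were scaled to 10000 per cell for 30 principal components and 30 neighbours of Leiden clustering at resolution 1 (leidenalg 0.10.2). A cluster was named where at least 3 markers were detected and 2 in 3 of those were raised by 0.5 (log2). Clusters led by another class or by immunoglobulin genes stayed unnamed, an exception set after the data were seen.

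Counts summed per tube, per tube and chemistry, or per tube and class (at least 20 cells in each tube, or 10 where added) were fitted over all genes with the quasi-likelihood test of edgeR 4.0.16 in R 4.3.3 (filterByExpr, TMM, trended dispersion of 1e-04 or above) with Benjamini-Hochberg adjustment at 0.05. The mouse or tube was a block, because both tubes of a mouse came from the same animal. As a check, the differences between the mice in the positive and in the negative tubes had Pearson r 0.838 and Spearman rho 0.807 over 9369 genes. The scripts were tested on simulated data. Alternatives were DESeq2 1.42.0, RLE factors, total UMIs, other filters, single chemistries, each tube left out and other clusterings. Neighbours were a list on chromosome 6, named where called or nearest among those of at least 10 CPM. The members, lists and marker rules were chosen with earlier results of these data known. Of the 3 genes most like Rosa26 across clusters, 1 is not reported here.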

Additional observations from a re-analysis of the deposited data

Results flagged for a closer look

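In cluster 4, Thumpd3 had 43.3 CPM in the tdTomato-positive tube of mouse 1, set apart from the other 3 tubes (49.6 CPM in the positive tube of mouse 2, against 49.4 and 50.6 CPM in the negative tubes). It was 1 of 60 groups of 4 tubes looked at, where chance alone sets apart about 1 in 20.

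In some classes the gate ratio of a gene pointed one way in both mice while that in HSC-like cells pointed the other way in both. These differences were not tested. Rosa26 had a mean log2 ratio, tdTomato-positive over tdTomato-negative, of 0.82 in T and NK cell-like cells, from 19 UMIs in all, against -0.41 in HSC-like cells. Setd5 had 0.36 in B cell-like cells against -0.08 in HSC-like cells. Thumpd3 had -0.040 in megakaryocyte-platelet-like cells and -0.23 in T and NK cell-like cells, where HSC-like cells were at 0.00 in both mice.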

How the results depend on the processing

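Of the values that answer a comparison, 160 were kept over the alternatives run, 35 moved, 7 lost their call and 13 changed sign. Tested values counted as kept where direction and call stayed. Gate values and shares of cells have no call and counted as kept within the SD between the mice. Beyond it they counted as moved, also where their sign turned. Numbers of genes called counted as kept where equal or within a set ratio. Of the values for B cell-like, erythroid-like and unnamed clusters, 58 kept direction and call, 6 gained or lost a call and 2 changed sign. The causes were not tested except where stated. Gate, log2 positive over negative: with clusters weighted alike Thumpd3 was at -0.0093. In HSC-like cells Rosa26 was at -0.54 with v3.1, -0.69 in cluster 2 and -0.11 in cluster 5, Thumpd3 at 0.031 (GEM-X), -0.036 (v3.1), 0.13 (cluster 2) and -0.13 (cluster 5), and Setd5 at -0.13 and -0.018 in those clusters. The 132 gate calls over all genes became 6 with DESeq2, 208 without a filter, 19 without Scrublet-called cells, 1 with GEM-X and 61 with v3.1. Without the mouse as a replicate block edgeR made 0 calls, with 102 genes at an unadjusted p under 0.05, and without the tube block Rosa26 between chemistries was at -0.28 (adjusted p = 0.192). That block changed no call of Thumpd3 or Setd5 between chemistries, and the class comparisons were not run without it. The gate effect of Thumpd3 between the 2 HSC-like clusters differed by -0.26. Over HSC-like cells, megakaryocyte-platelet-like Thumpd3 was at 0.14 by total UMIs, and Setd5 at -0.027 (RLE), -0.085 (total UMIs), -0.017 (Leiden resolution 2) and -0.018 (at least 10 cells). Neutrophil-like Rosa26 was at 0.27 (RLE), -0.10 (total UMIs) and 0.25 (at least 10 cells), and Thumpd3 at -0.11 (total UMIs). By total UMIs, B cell-like Setd5 was at -0.026 and cluster 7 Thumpd3 at -0.082. As log2 ratios of shares of cells, Rosa26 was at -0.39 (thinned to 2000 UMIs) and -0.45 (unthinned), Thumpd3 at 0.0085 (2000), and Setd5 at -0.069 (2000) and -0.061 (unthinned). Leaving out each tube in turn gave the following ranges. The gate fits over all cells and in HSC-like cells were then run without the mouse block. The other fits kept the tube as a block. Gate: Rosa26 -0.60 to -0.41, Thumpd3 -0.029 to -0.0075, calls 0 to 1. HSC-like cells: Rosa26 -0.55 to -0.26, Thumpd3 -0.023 to 0.037. Gate by chemistry: Rosa26 -0.21 to 0.16, Thumpd3 -0.11 to 0.12, Setd5 -0.037 to 0.055. Gate by class: Thumpd3 -0.012 to 0.064. Megakaryocyte-platelet-like: Setd5 -0.0059 to 0.031. Neutrophil-like: Rosa26 0.20 to 0.36, Thumpd3 0.22 to 0.34. Depth limits Rosa26 most, with 585 UMIs in the shallowest tube.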

Other observations

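Barcodes with hashtags of 2 tubes were left out of the comparisons and hold RNA of cells from both tubes, at median depths of 16165 to 17217 UMIs. Rosa26 stood at 17.0 CPM (exact Poisson 95% interval 12.8 to 22.2) in the 182 barcodes with both positive hashtags, at 21.0 CPM (19.6 to 22.5) in the 2069 barcodes with 1 positive and 1 negative hashtag, and at 23.3 CPM (21.6 to 25.0) in the 1756 barcodes with both negative hashtags. Each of these intervals overlaps both others. Single pairs of a positive and a negative tube did not keep to this order, with 22.3 CPM (positive and negative of mouse 1), 23.7 CPM (positive of mouse 2, negative of mouse 1), 18.1 CPM (positive of mouse 1, negative of mouse 2) and 19.6 CPM (positive and negative of mouse 2). Setd5 stood at 212, 210 and 216 CPM in the same order, and Thumpd3 at 46.8, 49.5 and 50.6 CPM.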
